A study of Mus musculus with 6 samples.

Results

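The 10 genes described here encode the cyclins of G1 and of S-phase entry and the kinases that act with them or on them: Ccnd1, Ccnd2, Ccnd3, Ccne1, Ccne2, Ccna2, Cdk2, Cdk4, Cdk6 and Cdk7. They were chosen by gene symbol, and all 10 were found among the 11644 genes measured. The cells were MLL-ENL/NrasG12D cells, a mouse leukemia culture with an MLL fusion gene and an activated Nras, features that both groups shared. In the treated group, 3 libraries came from cells given 5 µM of EPZ015666, a small-molecule inhibitor of the arginine methyltransferase PRMT5, for 72 h with a second dose on day 2. The control group, also 3 libraries, received an equal amount of the solvent DMSO. The series calls the libraries independent replicates and does not say what was repeated, so the p-values measure only the spread between these 6 libraries, which may be technical. The labels name a single cell source, so no other leukemia was sampled. In bulk RNA such as this, fewer cells in a phase of the cycle and less transcript per cell cannot be told apart.

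D-type cyclins bind CDK4 or CDK6, and the complexes phosphorylate the retinoblastoma protein RB, which releases E2F transcription factors. E2F then drives the genes of the E-type cyclins and of cyclin A2, whose complexes with CDK2 start and sustain DNA replication. CDK7, with cyclin H and MAT1, forms the CDK-activating kinase, which phosphorylates the T-loop of the other kinases and also the tail of RNA polymerase II. D cyclins are the link between mitogen signalling and this engine. The inhibitors of the INK4 family bind CDK4 and CDK6, and those of the CIP/KIP family, such as p21, bind the cyclin complexes themselves.

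With the inhibitor, 3 of the 10 genes rose, 3 fell and 4 did not pass (limma, Benjamini-Hochberg adjusted, threshold 0.05). Over all genes, 23.6% were called higher and 22.9% lower, 46.5% in all, so 6 called genes of 10 is a share near the background. What differed between the genes was direction and size. Ccnd1 and Ccne2 rose, the other D and E cyclin genes did not pass the test, and Ccna2 fell. Among the kinases Cdk7 rose slightly, Cdk4 and Cdk2 fell slightly, and Cdk6 did not pass. The 3 libraries of each group did not overlap for 7 of the 10 genes, 3 upward and 4 downward, against 56% of all genes (28.2% upward and 27.9% downward). The median log2 fold change of the 10 genes was -0.09, beside 0.0012 for all genes.

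**Figure D1:**
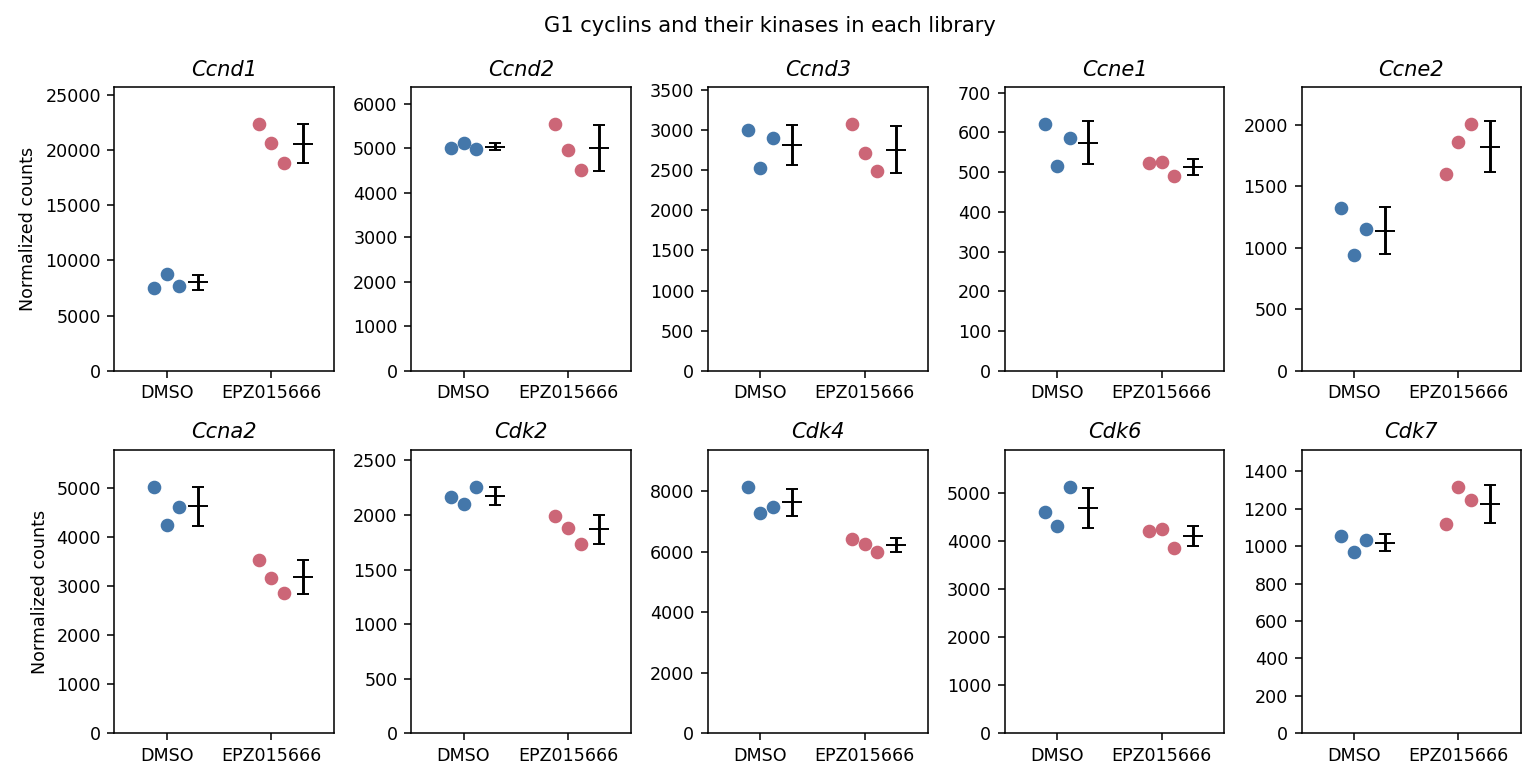
Normalized counts of each gene (vertical axes, linear, starting at 0) in the 3 DMSO libraries (blue, libraries 1 to 3 from left to right) and the 3 EPZ015666 libraries (red, the same order), with the mean and SD of each group as a bar. The EPZ015666 libraries lie above all DMSO libraries for Ccnd1, Ccne2 and Cdk7, and below them for Ccna2, Cdk2, Cdk4 and Cdk6.

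All 10 genes were well covered, with 376 to 21876 reads in a library, and the SD was between 1.42% and 16.9% of the group mean. Library totals ran from 11335948 to 19197912 reads. DMSO library 2 stood apart from the other DMSO libraries on the second principal component (score -29.2 against 13.5 and 12.3), which held 8.97% of the variance. It was the lowest DMSO library for 8 of the 10 genes, beside 37.1% of all genes, and the highest for Ccnd1 and Ccnd2. Inhibitor library 3 was the lowest of its group for 8 of the 10 genes, beside 37.8% of all genes. All 12 listed markers of myeloid leukemia cells were measured, and 6 of them were higher and 2 lower with the inhibitor, beside 23.6% and 22.9% of all genes. Ptprc, the leukocyte marker CD45, had 6900 ± 413 and 6867 ± 251 normalized counts (SD, n = 3). Most of the difference in the sum lay in Itgam (1667 ± 203, then 6314 ± 44.0) and Csf1r (1235 ± 33.6, then 3912 ± 165), both of which rose. Mpo and Cebpa fell (log2 fold changes of -1.11 and -0.54). For Mpo the groups overlapped, with 1438, 371 and 731 normalized counts in DMSO and 408, 292 and 327 with the inhibitor. The summed level of the 12 markers was 19090 to 20085 normalized counts in DMSO and 27061 to 27630 with the inhibitor. Its part in the results was not tested. None of the 10 listed erythroid markers is in the table, nor are Cd3e, Col1a1 and Krt8. The measured markers of B, T and NK cells, megakaryocytes, stroma with endothelium, and epithelium summed to no more than 81.1 normalized counts per list in any library. The sum lay above the DMSO range for markers of NK cells (28.5 to 42.8, then 51.1 to 62.4) and megakaryocytes (9.78 to 17.7, then 32.7 to 54.5). It overlapped that range for stroma with endothelium and for epithelium. Lck, the only measured T cell marker, lay above its DMSO range (8.15 to 17.8, then 18.2 to 19.4). Cd79b, the only measured B cell marker, lay below its own (24.5 to 28.5, then 12.3 to 22.6). Neither Lck nor Cd79b passed the test (limma adjusted p of 0.131 and 0.0634). The megakaryocyte marker Itga2b and the epithelial marker Epcam were called higher (log2 fold changes of 2.00 and 1.55, limma adjusted p of 0.00145 and 0.0153). Both were near the floor, at 6.79 ± 2.90 and 3.41 ± 1.26 normalized counts in DMSO (SD, n = 3). No other measured marker of these non-myeloid lists was called.

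The promoters of the kinase genes differ in the number of E-boxes they hold, and those sequences come first. RefSeq windows of 250 bases before and 50 after a transcript start (build GRCm38.p6) were matched for 6 of the 10 genes, with 2 windows for Ccnd3. Ccnd1, Ccnd2, Ccne2 and Ccna2 were not matched. The windows were searched on both strands for the E-box CACGTG, which MYC with MAX and related factors bind, for the E2F-type sites TTTCGCGC and TTTGGCGC, and for CCAAT. The Cdk4 window held 4 E-boxes, at 172, 118, 98 and 11 bases before the start, and 8 of 32851 windows (0.0244%) held that many. Cdk6 and Cdk7 had 1 each, 7.15% of all windows had at least 1, and the windows of Cdk2, Ccne1 and Ccnd3 had none. No window of these genes held TTTCGCGC or TTTGGCGC, which stood in 0.323% and 0.514% of all windows. CCAAT was present once in the Cdk2 window and once in 1 of the Ccnd3 windows, beside 37.4% of all. The kinase genes that passed the test are shown here because Cdk4 and Cdk2 fell and Cdk7 rose. Only bases before the start and outside annotated untranslated regions are printed, in lower case, with each CACGTG in capitals.
Cdk4 (chr10:127063285-127063533, plus strand): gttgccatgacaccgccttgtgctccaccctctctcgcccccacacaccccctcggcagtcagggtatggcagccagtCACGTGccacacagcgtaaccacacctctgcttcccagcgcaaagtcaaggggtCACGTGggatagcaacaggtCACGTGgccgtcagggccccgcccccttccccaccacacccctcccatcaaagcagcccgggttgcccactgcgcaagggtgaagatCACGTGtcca
Cdk7 (chr13:100730943-100731192, minus strand): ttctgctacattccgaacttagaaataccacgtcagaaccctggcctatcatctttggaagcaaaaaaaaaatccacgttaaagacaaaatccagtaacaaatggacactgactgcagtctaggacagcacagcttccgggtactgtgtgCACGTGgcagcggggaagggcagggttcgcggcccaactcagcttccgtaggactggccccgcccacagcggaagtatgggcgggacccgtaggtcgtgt
Cdk2 (chr10:128705052-128705179, minus strand): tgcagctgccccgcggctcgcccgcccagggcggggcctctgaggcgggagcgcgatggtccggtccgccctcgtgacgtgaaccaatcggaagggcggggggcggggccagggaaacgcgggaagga

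A match is a description of these letters and not a measured binding site. For the E-box, the level of Myc can be set beside it: Myc stood at 4781, 4768 and 4573 normalized counts in the DMSO libraries and at 2505, 2113 and 2120 with the inhibitor. It fell 2.10-fold (limma adjusted p = 3.06e-06). Of the kinase genes, Cdk4, with 4 E-boxes, and Cdk2, with none, fell. Of those with 1, Cdk7 rose and Cdk6 did not pass the test. These genes are too few to relate direction to E-box number, and the calls of Cdk4, Cdk2 and Cdk7 were each lost when certain single libraries were left out. Binding of MYC was not measured, and its part in these values was not tested.

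Among the D-type cyclins, which bring growth signals to the cycle, the change lay in Ccnd1 (mm10 chromosome 7, 144929931 to 144939925, minus strand, ENSMUSG00000070348.5), the gene of cyclin D1. Its levels were 7503, 8787 and 7714 normalized counts in DMSO and 22346, 20645 and 18796 with the inhibitor. The lowest inhibitor library was thus far above the highest DMSO library. The means were 8001 ± 689 and 20596 ± 1776 (SD, n = 3 per group), a 2.57-fold rise. On the log2 scale of the normalized count + 1 the change was 1.36 ± 0.11 (SE, 95% interval 1.13 to 1.60, limma adjusted p = 2.32e-06). Only 5.23% of all genes had a larger log2 fold change. Its call was kept under all 14 alternative settings, with log2 values of 1.30 to 1.43. Ccnd1 exons overlap those of LTO1 (Oraov1 in the table), on the opposite strand, over 1100 bases, 23.4% of its exon length. The strand setting of the counting is not given in the sources used here, and Oraov1 stood at 180 ± 12.3 and 191 ± 22.3 normalized counts (SD, n = 3).

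Ccnd2 (chromosome 6, 127125162 to 127152193, minus strand), the gene of cyclin D2, had 5013, 5114 and 4976 normalized counts in DMSO and 5535, 4960 and 4508 with the inhibitor. The inhibitor libraries lay on both sides of the DMSO libraries. The log2 fold change was -0.01 ± 0.09 (SE), with a 95% interval of -0.21 to 0.18 (limma adjusted p = 0.909), or 0.862-fold to 1.14-fold. For Ccnd3 (chromosome 17, 47505051 to 47599691, plus strand), the gene of cyclin D3, the DMSO values were 2999, 2530 and 2907 and the inhibitor values 3076, 2716 and 2489. The range of the inhibitor libraries enclosed that of the DMSO libraries, and the log2 fold change was -0.03 ± 0.10 (SE, 95% interval -0.24 to 0.19, limma adjusted p = 0.833). The annotation holds a pseudogene of Ccnd3, so a share of its reads may be placed elsewhere. For both genes, leaving out inhibitor library 3 turned the sign of a fold change that lay near 0, to 0.058 for Ccnd2 and 0.043 for Ccnd3.

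The make-up of the D cyclin transcripts differed between the groups. Levels were divided by the length of all annotated exons of a gene to compare genes, as normalized counts per kb. On this scale the D cyclin genes together had 2555 ± 125 per kb in DMSO and 5220 ± 465 in inhibitor libraries (SD, n = 3). Ccnd1 made up 64.6%, 69.2% and 65.6% of this sum in the DMSO libraries and 83.5%, 84.0% and 84.0% in the inhibitor libraries. The share of Ccnd2 was 21.6%, 20.1% and 21.2% in the DMSO libraries and 10.2% ± 0.152 (SD, n = 3) with the inhibitor, at a level per kb of 535 ± 7.61 and 532 ± 54.7. For Ccnd3 the share was 12.6% ± 1.68 and then 6.02% ± 0.128. The share of Ccnd3 depends on the length used, since its exons cover 8775 bases in all and its longest coding transcript 2113 bases. With the latter length for every gene, Ccnd3 held 31.2% of the D cyclin sum in DMSO and 17.2% with the inhibitor, and Ccnd1 50.1% and 72.5%. Under both lengths Ccnd1 was the leading D cyclin gene in both groups. Among all 6 cyclin genes, per kb of exon, Ccnd1 held 40.2% ± 3.83 in DMSO and 65.1% ± 0.795 in inhibitor libraries (SD, n = 3), and Ccna2 held 26.7% ± 1.91 and 11.6% ± 0.398.

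**Figure D2:**
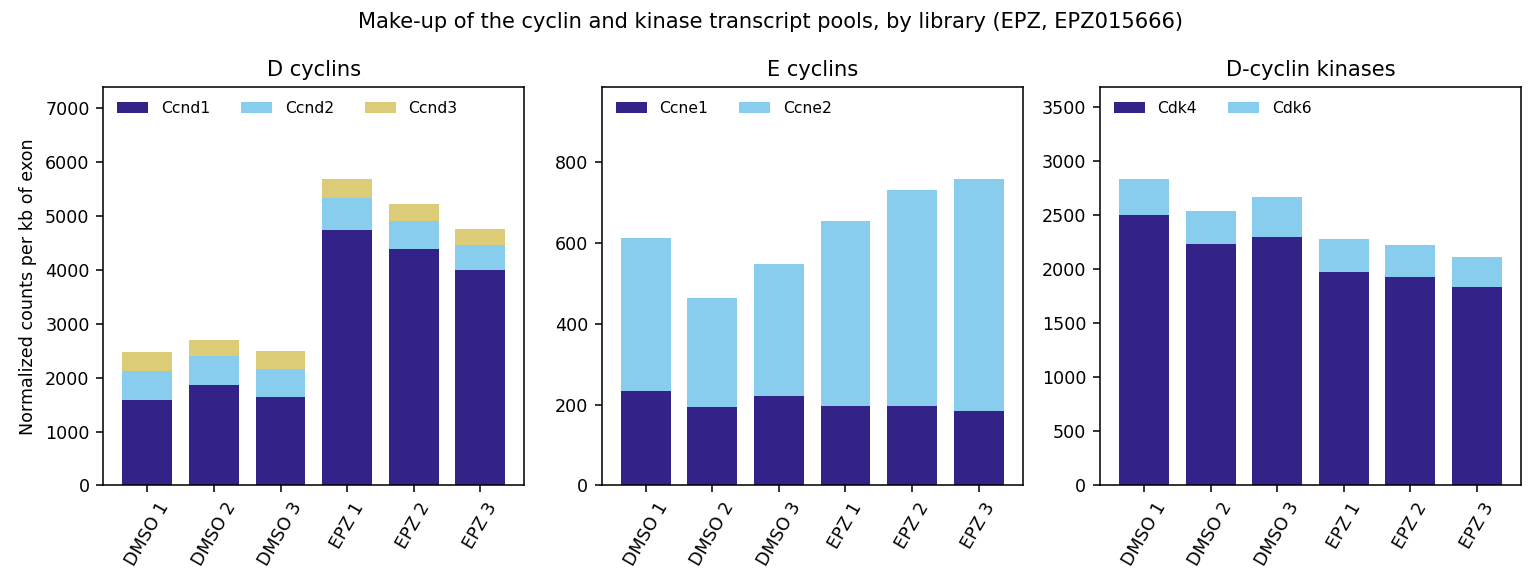
Normalized counts per kb of exon (vertical axes, linear, starting at 0) of the D cyclin genes, the E cyclin genes and the kinase genes Cdk4 and Cdk6, stacked in each of the 6 libraries (EPZ stands for EPZ015666). The Ccnd1 part grows from 1699 to 4374 per kb on average, the Ccne2 part from 326 to 521, and the Cdk4 part shrinks from 2347 to 1914.

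The E-type cyclins, partners of CDK2 at the start of S phase, also divided. Ccne2 (chromosome 4, 11191351 to 11204779, plus strand), the gene of cyclin E2, stood at 1326, 941 and 1149 normalized counts in DMSO and at 1600, 1861 and 2004 with the inhibitor. All inhibitor libraries were above all DMSO libraries, and DMSO library 2 was the lowest. The log2 fold change was 0.69 ± 0.12 (SE, 95% interval 0.41 to 0.96, limma adjusted p = 8.81e-04), or 0.56 without DMSO library 2 (limma adjusted p = 8.23e-04). Ccne2 shares 609 exon bases, 17.4% of its exon length, with Ints8 on the opposite strand, and Ints8 had 1327 ± 17.9 and 1316 ± 130 normalized counts (SD, n = 3). Ccne1 (chromosome 7, 38097984 to 38107534, minus strand), the gene of cyclin E1, was the lowest of the 10 genes per kb of exon in both groups. Its normalized counts were 620, 515 and 586 in DMSO and 524, 526 and 491 with the inhibitor. The groups overlapped at DMSO library 2, and the log2 fold change of -0.16 ± 0.10 (SE, 95% interval -0.37 to 0.06) was not called (limma adjusted p = 0.207). Within a library, the ratio of Ccne2 to Ccne1 normalized counts was 2.14, 1.83 and 1.96 in DMSO and 3.05, 3.54 and 4.08 with the inhibitor. Every inhibitor library thus held relatively more Ccne2 than any DMSO library.

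Ccna2 (chromosome 3, 36564865 to 36572150, minus strand), the gene of cyclin A2, which acts with CDK2 in S phase and with CDK1 later, fell most of the 10 genes. The DMSO values were 5017, 4237 and 4604 normalized counts and the inhibitor values 3535, 3163 and 2847, without overlap. The means were 4619 ± 390 and 3182 ± 344 (SD, n = 3), a 1.45-fold fall, and the log2 fold change was -0.54 ± 0.10 (SE, limma adjusted p = 9.99e-04). It stayed called under all 14 alternatives, between -0.62 and -0.46 on the log2 scale. Exosc9, on the opposite strand, shares 510 exon bases with it and had 996 ± 21.1 and 1080 ± 43.0 normalized counts (SD, n = 3). Ccna2 and Ccne2, both known as E2F-driven genes, thus passed the test in opposite directions. The ratio of Ccna2 to Ccne2 was 3.78, 4.50 and 4.01 in DMSO and 2.21, 1.70 and 1.42 with the inhibitor.

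**Figure D3:**
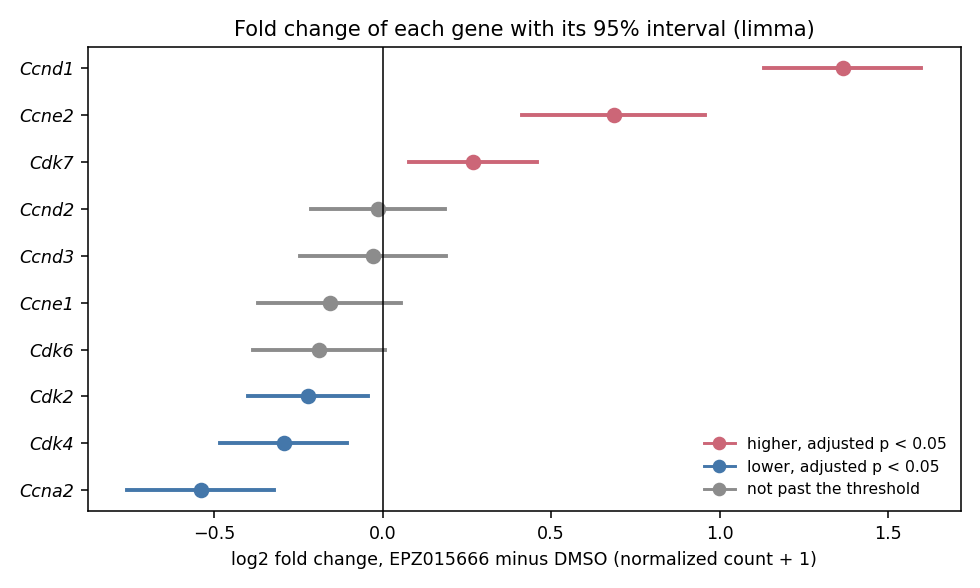
The log2 fold change of each gene (horizontal axis, EPZ015666 minus DMSO, on the normalized count + 1) with its 95% interval from limma, ordered by size. The interval of Ccnd1 (1.13 to 1.60) lies farthest above 0 and that of Ccna2 (-0.76 to -0.32) farthest below, and those of the 4 grey genes include 0.

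Of the D cyclin kinases, Cdk4 fell and Cdk6 did not pass the test. Cdk4 (chromosome 10, 127063534 to 127067920, plus strand) had 8139, 7259 and 7480 normalized counts in DMSO and 6424, 6258 and 5978 with the inhibitor. The groups did not overlap, and the mean fell 1.23-fold, with a log2 fold change of -0.29 ± 0.09 (SE, limma adjusted p = 0.0156). Leaving out DMSO library 1 or inhibitor library 2 ended the call (limma adjusted p of 0.0763 and 0.0562). Its exons overlap those of Tspan31 on the opposite strand over 641 bases, 19.7% of its exon length, and Tspan31 rose, from 1297 ± 110 to 1719 ± 136 (SD, n = 3, limma adjusted p = 0.00361), the opposite direction. Cdk6 (chromosome 5, 3341485 to 3531008, plus strand), the other D cyclin kinase, stood at 4610, 4308 and 5129 in DMSO and at 4202, 4241 and 3860 with the inhibitor. Although no inhibitor library reached a DMSO library, the gap was narrow. The log2 fold change of -0.19 ± 0.09 (SE, 95% interval -0.38 to 0.01) did not pass (limma adjusted p = 0.105), nor did it under any of the 14 alternatives. Per kb of exon, Cdk4 made up 87.5% ± 1.11 of the sum of both kinase genes in DMSO and 86.7% ± 0.290 in inhibitor libraries (SD, n = 3), a difference within the spread of the DMSO libraries.

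Cdk2 (chromosome 10, 128697939 to 128705031, minus strand), the partner of cyclins E and A, went from 2162, 2097 and 2257 normalized counts to 1991, 1877 and 1734. The libraries did not overlap, but the fall was small, -0.22 ± 0.08 on the log2 scale (SE, limma adjusted p = 0.0433). DESeq2 did not call it (adjusted p = 0.0517). Neither did limma with DMSO library 1 or 3 left out (adjusted p of 0.0966 and 0.149), or inhibitor library 2 or 3 (0.105 and 0.116). Cdk7 (chromosome 13, 100702631 to 100730939, minus strand), the CDK-activating kinase, went the other way, from 1053, 967 and 1034 to 1118, 1317 and 1249. Its log2 fold change was 0.27 ± 0.09 (SE, limma adjusted p = 0.0251). This call ended when limma was run with DMSO library 2 or 3 left out (adjusted p of 0.0670 and 0.0569), or inhibitor library 2 or 3 (0.117 and 0.0562). The calls of Cdk2 and Cdk7 thus each hang on 4 of the 6 libraries, while over the 14 alternatives their log2 values stayed between -0.27 and -0.17 and between 0.22 and 0.33.

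**Figure D4:**
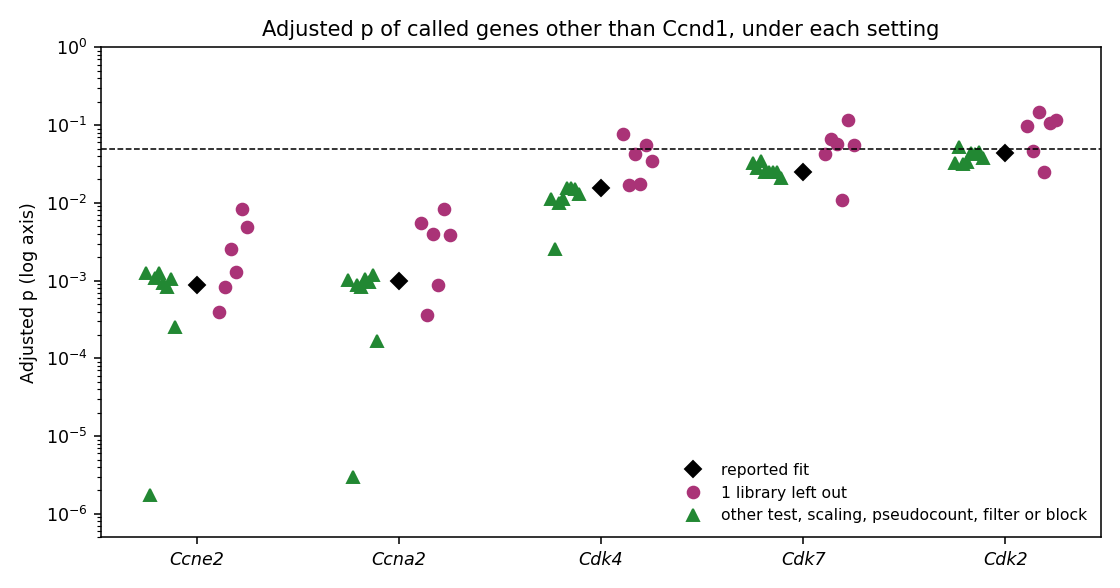
Adjusted p (vertical axis, logarithmic) of the called genes other than Ccnd1 in the reported fit (black), with 1 library left out (purple) and with another test, scaling, pseudocount, filter or a replicate block (green), with the threshold of 0.05 as a dashed line. All points of Ccne2 and Ccna2 lie under it, and Cdk4, Cdk7 and Cdk2 each have points above it.

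The partners of CDK7 are named for that role, outside the rule for named genes. Ccnh, the gene of cyclin H, fell, from 605, 640 and 589 normalized counts to 536, 466 and 452 (log2 fold change -0.34 ± 0.10 SE, limma adjusted p = 0.0133). Mnat1, the gene of the assembly factor MAT1, had 414 ± 37.4 and 417 ± 48.8 (SD, n = 3, limma adjusted p = 0.963). The ratio of Cdk7 to Ccnh was 1.67 ± 0.137 in DMSO and 2.56 ± 0.413 in inhibitor libraries (SD, n = 3), and the libraries of the groups did not overlap in this ratio. For Cdk7 to Mnat1 they overlapped, with ratios of 2.33, 2.33 and 2.75 in DMSO and 2.71, 2.81 and 3.37 with the inhibitor.

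Smaller exon overlaps touch 4 further genes, each with an opposite-strand partner: Ccnd2 and Cdk6 with antisense genes that are not in the table, Ccnd3 with Bysl over 361 bases, and Cdk2 with Pmel over 34 bases. Bysl had 803 ± 13.2 and 816 ± 82.0 normalized counts (SD, n = 3), and Pmel 13.3 ± 3.57 and 4.05 ± 1.81. Ccne1 and Cdk7 overlap no exon of another gene.

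Per kb of exon, the order of the 10 genes in DMSO was led by Cdk4 (2347 ± 141 normalized counts per kb), Ccnd1 (1699 ± 146), Ccna2 (1131 ± 95.6) and Ccnd2 (535 ± 7.61), each apart from the next by more than the spread (SD, n = 3). Then came Cdk2 (349 ± 12.9), Cdk6 (335 ± 29.7), Ccne2 (326 ± 55.1) and Ccnd3 (320 ± 28.3), which do not differ beyond their spread. Cdk7 (275 ± 12.1) and Ccne1 (216 ± 20.2) came last. With the inhibitor Ccnd1 led (4374 ± 377), followed by Cdk4 (1914 ± 69.4) and Ccna2 (779 ± 84.3). Ccnd2 (532 ± 54.7) and Ccne2 (521 ± 58.6) were next and did not differ beyond their spread. The values of Cdk7 (331 ± 27.4), Ccnd3 (315 ± 33.7), Cdk2 (300 ± 20.7) and Cdk6 (293 ± 15.0) overlapped, and Ccne1 (193 ± 7.42) was again the lowest. With the longest coding transcript as length, the places of Cdk4, Ccnd1, Ccna2 and Ccne1 in DMSO were the same, and Ccnd3 was in place 4 rather than 8. With the inhibitor that length put Ccnd3 (1306 ± 140 per kb) in place 3 and Ccna2 (1073 ± 116) in place 4, with overlapping libraries, after Ccnd1 and Cdk4.

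Genes around the cyclins were followed in 8 lists, in which 22 of 123 measured genes were higher and 49 lower with the inhibitor, against the background of 23.6% and 22.9%. Of the 7 genes of CDK inhibitors 3 rose, 1 fell and 3 did not pass, with a median log2 fold change of 0.42. That median is the value of Cdkn1c, named after its values were seen, which did not pass (limma adjusted p = 0.613). Cdkn1c was near the floor, at 3.26, 8.07 and 1.96 normalized counts in DMSO and 6.13, 11.2 and 2.15 with the inhibitor. Cdkn1a, which encodes p21, rose 4.92-fold, from 508, 773 and 549 normalized counts to 3230, 2904 and 2861 (limma adjusted p = 2.30e-07). The INK4 locus gene Cdkn2a rose from 239 ± 14.1 to 396 ± 24.9, and its neighbour Cdkn2b from 11.3 ± 6.41 to 80.6 ± 5.47 (SD, n = 3). Counts are per gene, so the transcripts of Cdkn2a, including that of its INK4 protein, cannot be told apart. Cdkn2b was near the floor in DMSO, at 14.7, 15.3 and 3.93 normalized counts, and its log2 fold change ran from 2.35 to 3.21 over the alternative settings. The ratio of Ccnd1 to Cdkn1a normalized counts, not scaled for length, was 14.8, 11.4 and 14.1 in DMSO and 6.92, 7.11 and 6.57 with the inhibitor. The single fall, of Cdkn2c (log2 fold change -0.27), which is named after its values were seen, was not called when any 1 of 4 libraries was left out, namely DMSO 1 or 3 or inhibitor 2 or 3.

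Downstream of the D cyclins, 7 of 13 genes of RB pocket proteins, E2F factors and their DP partners fell, none rose and 6 did not pass, with a median log2 fold change of -0.31. Tfdp2, a DP partner, fell 2.56-fold, its normalized counts going from 988 ± 40.5 to 385 ± 21.6 (SD, n = 3, limma adjusted p = 5.35e-07). E2f8 fell 1.70-fold, from 1064 ± 82.4 to 626 ± 43.1, and E2f6 1.34-fold, from 956 ± 54.7 to 711 ± 5.97 (SD, n = 3). Both encode E2F proteins that repress transcription. Without inhibitor library 3, 1 gene of this list was called higher.

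Of 25 E2F-driven genes of S-phase entry, 13 fell, 1 rose and 11 did not pass, and the median log2 fold change was -0.27. Mcm7, a subunit of the replicative helicase, fell from 7171 ± 812 to 3831 ± 353 normalized counts, and the thymidine kinase gene Tk1 from 1518 ± 96.0 to 805 ± 20.0 (SD, n = 3). The rise was that of the thymidylate synthase gene Tyms, 0.26 on the log2 scale, named after its values were seen. Ccna2 moved in the direction of these falls and Ccne2 in the opposite one. Without inhibitor library 2 the list had 7 falls in place of 13 and no rise, and without DMSO library 1 it had no rise.

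In the list of CDK activation, phosphorylation and folding, 6 of 15 genes fell, none rose and 9 did not pass (median log2 fold change -0.20). Cdc25b, a phosphatase that activates CDKs, fell 2.07-fold, from 733 ± 44.8 to 355 ± 28.6 normalized counts. Cdkn3, a phosphatase that removes the activating phosphate of CDK2, fell 2.11-fold, from 222 ± 25.0 to 105 ± 4.01, and Cks1b, a small CDK-binding subunit, 1.36-fold, from 1992 ± 116 to 1461 ± 13.7 (SD, n = 3). The list thus holds falls of genes that act for and against CDK activity.

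Genes that degrade G1 cyclins and CDK inhibitors, or oppose that degradation, changed in both directions: 3 of 15 rose, 7 fell and 5 did not pass (median log2 fold change -0.09). Fbxo31, a ubiquitin ligase subunit, fell 1.82-fold, its normalized counts going from 692 ± 36.6 to 380 ± 45.2 (SD, n = 3, limma adjusted p = 5.61e-05). The deubiquitinase gene Usp28 fell from 495 ± 42.8 to 272 ± 25.5, and Rbx1, the RING subunit of cullin ligases, rose from 1246 ± 85.4 to 1712 ± 76.4 (SD, n = 3). The other rises, named after their values were seen, were those of the ubiquitin ligase subunits Skp1a (log2 fold change 0.33) and Fbxo4 (0.55). The counts were 4 falls without DMSO library 1 or 3 or inhibitor library 2, and 1 rise without DMSO library 3 or inhibitor library 2. Cyclin protein was not measured in these data.

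Other members of the cyclin and CDK families moved in both directions as well. Of 17 other cyclin genes 5 rose, 3 fell and 9 did not pass (median log2 fold change -0.04). Ccng1, a p53-induced cyclin, rose 3.69-fold, from 3659 ± 294 to 13498 ± 903 normalized counts, beside 2.57-fold for Ccnd1, and Ccny rose 1.32-fold. Ccnb2, a mitotic cyclin, fell from 1966 ± 248 to 1323 ± 78.2 (SD, n = 3). The other changes, named after their values were seen, were log2 rises of 0.46 for Ccnl2 and 0.35 for Ccnc, log2 values of -0.40 for Ccni and -0.24 for Ccnb1, and a rise of Ccno. Ccno was near the floor, at 1.63, 3.23 and 0.982 normalized counts in DMSO and 14.3, 6.99 and 8.61 with the inhibitor, so the size of its log2 change depends on the pseudocount. Of 14 other cyclin-dependent kinase genes 3 rose, 7 fell and 4 did not pass (median log2 fold change -0.14). Cdk10 fell 2.18-fold, and Cdk19, a kinase of the Mediator complex, 2.03-fold, from 1838 ± 59.2 to 903 ± 58.1, while Cdk17 rose 1.84-fold, from 1169 ± 121 to 2151 ± 29.7 (SD, n = 3). Cdk14 and Cdk18, named after their values were seen, rose by 2.55 and 1.40 on the log2 scale.

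Factors known to control D cyclin transcription were the last list, with 7 of 17 genes higher, 5 lower and 5 not past the test (median log2 fold change 0.21). Besides Myc, given above, Stat5a, a cytokine-activated factor, fell from 1043 ± 46.6 to 657 ± 76.8 normalized counts (SD, n = 3, limma adjusted p = 2.05e-04). Jun, a subunit of AP-1, rose 1.94-fold, from 646, 1022 and 694 to 1519, 1510 and 1552 (limma adjusted p = 1.81e-04). Of the 7 rises, 6 were those of AP-1 genes (Jun, Junb, Jund, Fos, Fosl1 and Fosl2), and the other was Foxo3, beside 23.6% of all genes called higher. The make-up of the list was set with earlier results of these data known. Fosl1 was near the floor in DMSO, at 0.815, 7.27 and 6.87 normalized counts. Egr1, also in the list, did not pass (limma adjusted p = 0.0826). It was at 7.34, 272 and 17.7 normalized counts in DMSO and 122, 137 and 179 with the inhibitor. For Egr1, DMSO library 2 was thus above every inhibitor library. The other falls were those of Stat5b, Foxo4 and Ctnnb1. DMSO library 2 was the highest DMSO library for Jun, Junb, Jund, Fos, Fosl1 and Egr1, but not for Fosl2. It was also the highest for Ccnd1 and for 34.8% of all genes. Junb stood at 867, 1397 and 787 normalized counts in DMSO. Ets2, named after its values were seen, did not pass (limma adjusted p = 0.497) and stood at 614, 1384 and 637 in DMSO. Fos, another AP-1 subunit, named after its values were seen, was at 128, 352 and 129 in DMSO and at 583, 578 and 557 with the inhibitor. The part of any of these factors in the change of Ccnd1 was not tested.

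**Figure D5:**
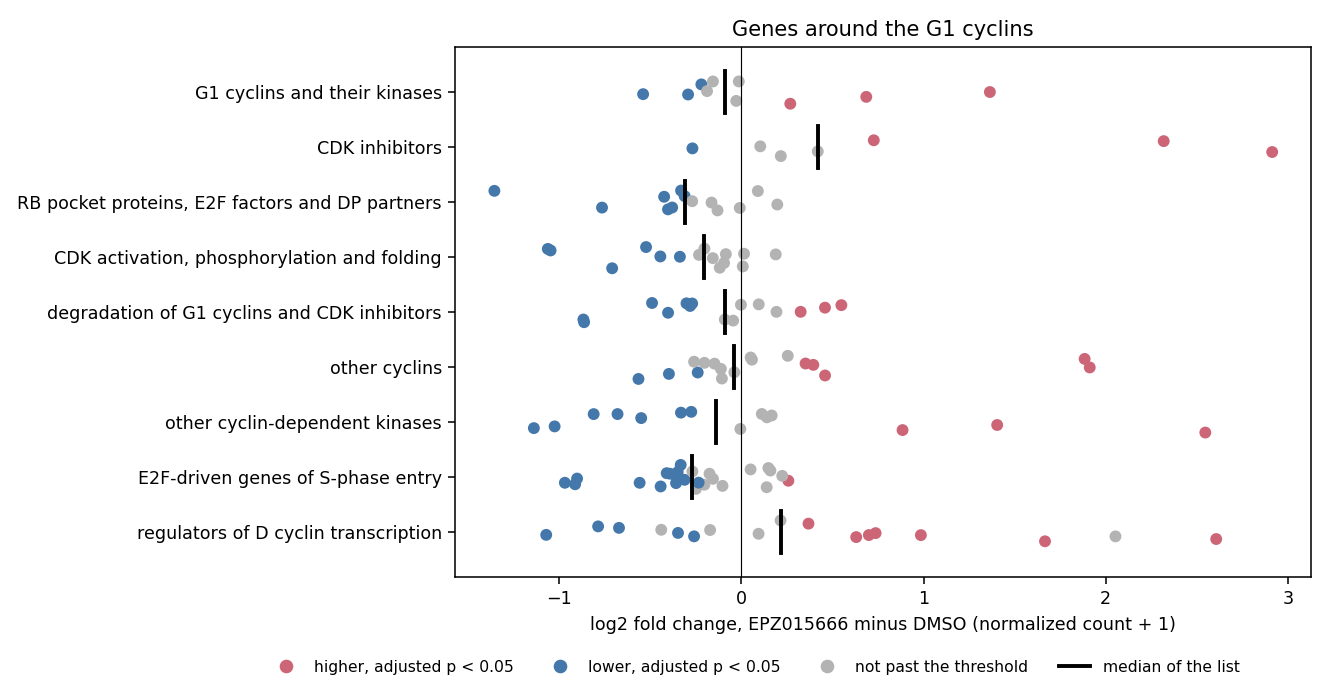
The log2 fold change (horizontal axis, EPZ015666 minus DMSO, on the normalized count + 1) of each measured gene in the 10 cyclin and kinase genes and in the 8 surrounding lists, with the median of each list as a black bar. Medians run from -0.31 for the RB and E2F genes to 0.42 for the CDK inhibitors, and the list of E2F-driven genes lies mostly left of 0. The median of the CDK inhibitors is the value of Cdkn1c, a gene near the floor that did not pass the test.

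The genes most like the largest rise and the largest fall were found among 9090 genes with a mean of at least 100 normalized counts. Likeness was the root mean square distance between log2 values in the 6 libraries, each taken relative to the mean of its gene. Angptl2 (distance 0.057), Amotl1 (0.062) and Sntb2 (0.079) were nearest to Ccnd1. Angptl2, for example, went from 1457, 1623 and 1505 normalized counts to 4033, 3773 and 3777. Nearest to Ccna2 were Brip1 (0.021), Ckap2l (0.023) and Nom1 (0.024). Brip1, a helicase gene of DNA repair, went from 1460, 1198 and 1346 to 1047, 927 and 833.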

How the data were processed

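RNA was measured by poly-A RNA-seq of 6 libraries, grouped by sample title into 3 DMSO and 3 inhibitor libraries (stranded mRNA kit, per the labels' protocols). Tools named in the submitters' processing notes are TopHat2 2.0.10, HTSeq 0.6.0, DESeq 1.16.0 and CASAVA 1.8.2, with build mm10. Annotation and strand setting for counting: not given in the sources used here. The authors deposited 1 table whose signal is read counts divided by a size factor per library, called normalized counts. In each library 100% of values were whole multiples of 1 step (tolerance 1e-06), so whole reads were recovered for count tests. The highest library of every gene holds 10 reads or more.

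Groups were compared over all 11644 genes by limma-trend on log2(normalized count + 1), with limma 3.58.1 in R 4.3.3, two-sided, Benjamini-Hochberg adjusted, threshold 0.05, with 4 residual degrees of freedom and no replicate block. The script was tested on simulated data. Alternatives were edgeR 4.0.16 and limma-voom (both TMM) and DESeq2 1.42.0 on recovered reads, upper-quartile factors, pseudocounts of 0.5 and 5, at least 5 CPM in 3 libraries, a replicate block, and leaving out each library. On the recovered reads edgeR called 2593 genes higher and 2819 lower. Gene length by longest coding transcript was added after the data had been seen. Libraries of 1 group differed by more than sampling noise (chi-square per degree of freedom 9.43 to 20.7).

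Named genes were all 10 members, up to 3 called genes with the smallest adjusted p per list, and the 3 nearest profiles to the largest rise and fall; 1 gene that this rule names is not reported here. The members and lists were chosen with earlier results of these data known. Positions and lengths are from GENCODE mouse release 21 (mm10).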

Additional observations from a re-analysis of the deposited data

How the results depend on the processing

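Ccnd1, Ccne2 and Ccna2 kept their direction and call under all 14 alternatives, with log2 fold changes of 1.30 to 1.43, 0.56 to 0.80 and -0.62 to -0.46. With 1 library left out, the called members numbered 2 to 3 upward and 1 to 3 downward, the single fall being Ccna2 without DMSO library 1 or without inhibitor library 2, when all genes called lower numbered 2237 and 2067 in place of 2665. The fall of Cdk2 was lost with DESeq2 (log2 fold change -0.22, adjusted p = 0.0517). With 1 library left out, log2 fold changes ran from -0.090 to 0.058 for Ccnd2 and from -0.11 to 0.043 for Ccnd3: signs near 0 turned for Ccnd2 without inhibitor library 3 and for Ccnd3 without that library or without DMSO library 1 (0.02). The cause was not tested. Same-numbered libraries deviated from their group means with correlations of 0.165, 0.0499 and 0.205 across genes, and all 6 libraries correlated best with their own number, but the labels do not say that a number marks a shared culture. With the replicate number as a block, 3016 genes were higher and 2916 lower, 3 members were higher and 3 lower, and no member's call changed. Over the 8 lists, leaving out a library gave 18 to 24 genes higher and 34 to 52 lower. Levels per kb and shares of the D cyclins depend on the length used, and the direction of the Ccnd1 share did not. Each of the 10 genes had at least 376 reads per library, and 3 libraries per group limit the precision of changes near 0.2 on the log2 scale.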
